A study of Mus musculus with 947 samples.

Results

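The muscle miRNAs are 7 mature miRNAs chosen by name: mmu-miR-1a-3p, mmu-miR-133a-3p, mmu-miR-133b-3p, mmu-miR-206-3p, mmu-miR-208a-3p, mmu-miR-208b-3p and mmu-miR-499-5p, written below without the species prefix. They are 7 of the 1076 miRNAs measured in the aging cohort and 7 of the 795 in the parabiosis cohort. The aging cohort held 768 libraries used here, from 16 tissues of C57BL/6JN mice at 10 ages from 1 to 27 months, males at every age and virgin females up to 21 months. Those mice were perfused before dissection, and limb muscle was the tibialis anterior. The parabiosis cohort held 176 libraries from 6 tissues of male mice joined for 5 weeks so that they shared a circulation. Isochronic young (IY) mice were 3 or 4.5 months old and joined to each other, and isochronic aged (IA) mice were 19 months old and joined to each other. In heterochronic pairs an aged partner of 19 months (HA) was joined to a young partner of 4 months (HY). All HY mice were of a strain that no mouse of the other groups had. Aged mice 19A and 19B (IA) and 20A (HA) were of a different strain from the other aged mice and the IY mice. The strains were C57BL/6J and C57BL/6JN, but the study's sources disagree on which is which: its sample sheet gives C57BL/6JN for these 3 mice, whereas its summary of animals gives it for the larger set. Thus strain cannot be told apart from group wherever HY mice enter a comparison. Where HA mice are compared with IA mice, the age of the partner cannot be told apart from its strain.

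These miRNAs are known as myomiRs because they are abundant in striated muscle. MiR-1 and miR-133 are transcribed from shared precursors in heart and skeletal muscle and act on muscle growth and differentiation. MiR-206 is a skeletal muscle miRNA linked to satellite cells, regeneration and reinnervation. MiR-208a, miR-208b and miR-499 lie within myosin heavy chain genes. MiR-208a shares its gene with the adult cardiac alpha myosin and miR-208b with the beta myosin of the fetal heart and slow muscle fibres.

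Sequences are shown for the members found in the RefSeq table (GRCm38.p6), because seed and genomic neighbourhood are what tie the members together. Capitals mark the seed, bases 2 to 8 of each mature miRNA.
miR-206-3p: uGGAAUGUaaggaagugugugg
miR-133b-3p: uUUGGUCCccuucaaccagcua
miR-208a-3p: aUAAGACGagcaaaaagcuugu
miR-208b-3p: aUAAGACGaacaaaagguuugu
miR-499-5p: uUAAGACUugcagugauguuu
MiR-208a-3p and miR-208b-3p had the same seed and were identical at 19 of 22 positions. Counted from the 5′ end of miR-208a-3p, their differences were G10A, A16G and C18U. The seed of miR-499-5p differed from theirs at its last base (G8U). MiR-1a-3p shares its seed with miR-206-3p, and miR-133a-3p differs from miR-133b-3p in the final base. Reads of the miR-133 pair can therefore be hard to assign, and the levels of its members relative to each other are uncertain.

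MiR-206-3p (chr1:20679055-20679076, plus strand) and miR-133b-3p (chr1:20682834-20682855, plus strand) came from precursors 3687 bases apart within the noncoding gene Lincmd1. MiR-499-5p (chr2:155622893-155622913, plus strand) lay in Myh7b. MiR-208a-3p (chr14:54949072-54949093, minus strand) lay in Myh6 and miR-208b-3p (chr14:54975710-54975731, minus strand) in Myh7, with 26558 bases between the precursors. No annotated transcript of these 3 myosin genes had an exon over the miRNA, so the position is intronic in the transcripts that span it. Mir1a-1 and Mir133a-2 lay 9255 bases apart within Mir1a-1hg on chromosome 2.

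Depth, as mapped reads recovered from the values, ran from 2.29 to 167 M per library in the aging cohort and from 9.20 to 47.6 M among the parabiosis libraries (M for 1000000 reads). With the members and their relatives left out, the miRNA profile of 9 aging and 3 parabiosis libraries was closest to the mean of another tissue. These included all 3 MAT libraries of 27 months and a bone library of 27 months that lay closest to heart. Of 112 pairs of a member and a tissue, 104 passed the local filter in the aging cohort (at least 1 rpmm, reads per 1000000 mapped reads, in 10% of the libraries of the tissue). All 8 that did not were miR-208b-3p, and in the parabiosis cohort 39 of 42 pairs passed.

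Limb muscle and heart were dominated by these miRNAs. They made up a median of 64.7% of the miRNA signal in limb muscle (29.2 to 84.1% over libraries) and 36.6% in heart (at most 43.9%). In bone their share was 11.9% and in skin 5.88%. The parabiosis cohort gave 66.9% in limb muscle and 39.6% in heart. In bulk tissue, fewer cells of a type and less RNA per cell cannot be told apart.

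**Figure D1:**
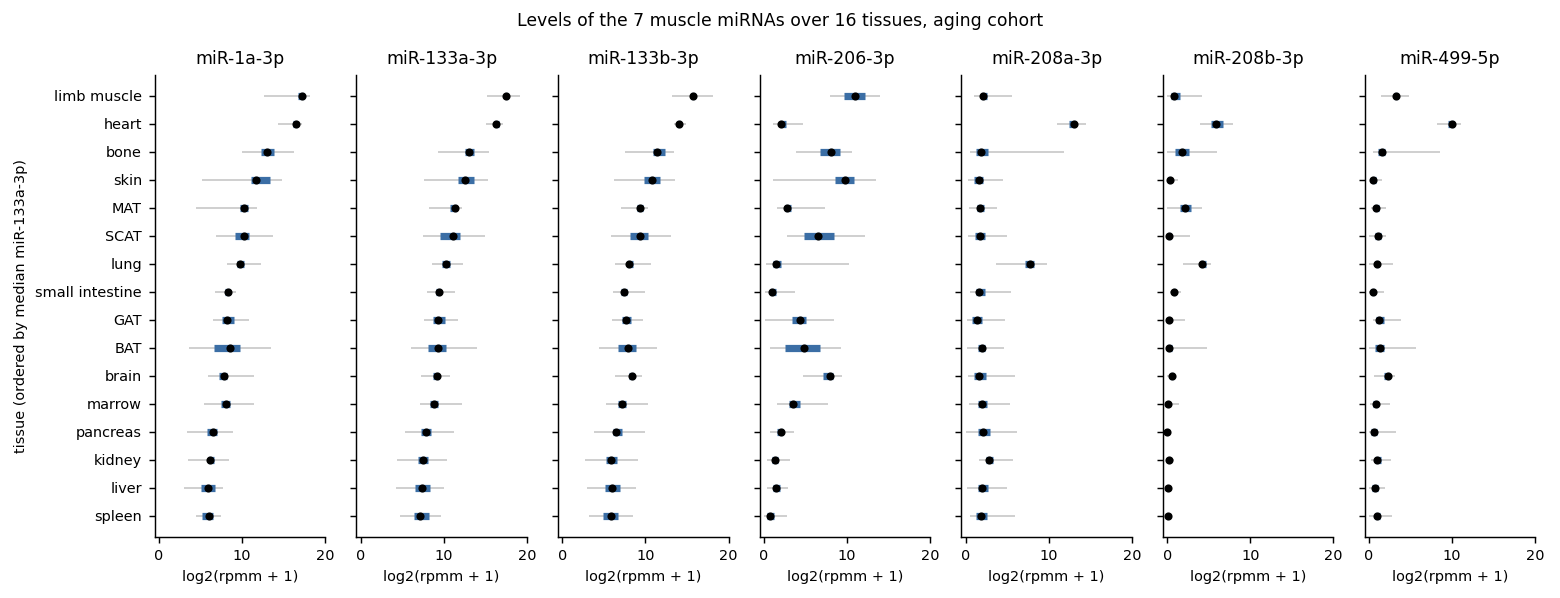
Level of each member, log2(rpmm + 1), in the 16 tissues of the aging cohort; points are medians over libraries, thick bars the interquartile range and thin lines the full range. MiR-1a-3p and the miR-133 pair are highest in limb muscle and heart, miR-206-3p is high in limb muscle and low in heart, and miR-208a-3p is high in heart and then lung.

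The miRNAs shared by both striated tissues, miR-1a-3p, miR-133a-3p and miR-133b-3p, followed nearly the same order of tissues. The member mmu-miR-133a-3p was the most abundant miRNA of limb muscle, with a median of 188033 rpmm, and the second of heart, with 80002.5 rpmm. In heart mmu-miR-1a-3p was first (90699.8 rpmm) and second in limb muscle (149589 rpmm). Next in limb muscle was mmu-miR-133b-3p (54463.8 rpmm), which reached 17496 rpmm in heart. Bone was next for all 3, with medians of 8709.64, 7999.36 and 2688.92 rpmm for miR-133a-3p, miR-1a-3p and miR-133b-3p. Skin followed, and the lowest medians of miR-1a-3p and miR-133a-3p were 57.4 rpmm in liver and 140.01 rpmm in spleen. Across the means of the 16 tissues Pearson's r was 0.996 between miR-1a-3p and miR-133a-3p and 0.995 between the miR-133 pair, as a description over tissues that share libraries between members.

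MiR-206-3p had a different order. The median of mmu-miR-206-3p was 1979.58 rpmm in limb muscle, 868 rpmm in skin, 278 rpmm in bone, 243 rpmm in brain and 88.9 rpmm in SCAT. Bone and brain did not differ beyond their spread (a difference of 0.27 on the log2 scale, SE 0.284, limma adjusted p = 0.393), whereas the other steps down to brown fat did. Heart stood at 3.31 rpmm, close to pancreas, and spleen was lowest at 0.683 rpmm.

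The cardiac members were more confined. In heart mmu-miR-208a-3p had a median of 8373.48 rpmm, followed by 210.18 rpmm in lung, where 45 of 55 libraries held at least 100 rpmm. Kidney followed at 6.17 rpmm, and the other 13 tissues had medians between 1.64 and 3.46 rpmm. A single bone library reached 3613.98 rpmm, the one of 27 months closest to heart, and the next bone library held 42.3 rpmm. MiR-208b-3p was also highest in heart (58.5 rpmm) and lung (17.3 rpmm), and its median was 3.29 rpmm in MAT, 2.45 rpmm in bone and 0.789 rpmm in limb muscle. MiR-499-5p held 989.92 rpmm in heart, 8.90 rpmm in limb muscle and 3.92 rpmm in brain. Of 105 pairs of neighbouring tissues in the orders of the 7 members, 39 differed at a limma adjusted p under 0.05. Neighbours came from sorting the same means, and the matching share over all miRNAs is not given here. The count therefore cannot be read as particular to the members. Over all 120 pairs of tissues miR-208a-3p differed in 56, miR-208b-3p in 86, miR-499-5p in 93 and miR-133a-3p in 109. Of the tests over all miRNAs and pairs of tissues 69.8% were called, so the low count was that of miR-208a-3p and not of all cardiac members.

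Heart and limb muscle were compared directly to ask how the members divide between cardiac and skeletal muscle. All 7 members were called in both cohorts, 3 higher and 4 lower in heart, where 65.5% of all miRNAs tested were called among aging mice and 65.2% among parabionts. In the aging cohort miR-206-3p lay between 1.15 and 25.7 rpmm in heart and between 244 and 16649.9 rpmm in limb muscle, with no overlap (-8.68 on the log2 scale, SE 0.283). MiR-208a-3p lay between 2104 and 23483 rpmm in heart and between 0.965 and 48.4 rpmm in limb muscle (10.5, SE 0.214). MiR-499-5p was also separate, at 287 to 2127 rpmm against 1.71 to 28.2 rpmm (6.66, SE 0.126). The ranges of miR-208b-3p met between 14.3 and 17.4 rpmm (4.79, SE 0.129).

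The miR-133 pair was lower in heart, by -1.16 for miR-133a-3p (SE 0.216, limma adjusted p = 2.93e-07) and by -1.67 for miR-133b-3p (SE 0.212), with overlapping ranges. MiR-1a-3p differed by -0.52 (SE 0.234, adjusted p = 0.0394), and scaling by miRNA reads ended that call (-0.34, adjusted p = 0.168). In the parabiosis cohort miR-1a-3p differed by -1.31 (SE 0.341), miR-133a-3p by -1.13, miR-133b-3p by -1.80 and miR-206-3p by -9.57, and scaling by miRNA reads ended the call of miR-133a-3p (-0.68, limma adjusted p = 0.109). MiR-208a-3p, miR-208b-3p and miR-499-5p were higher in heart there by 12.2, 6.79 and 6.91. Among 16 other miRNAs linked to muscle, 12 were higher and 3 lower in heart in the aging cohort, with a median difference of 0.97 against 0.10 over all miRNAs.

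The other arm of each precursor was far less abundant than the member, except for miR-499. MiR-499-3p held 26.2% of the level of miR-499-5p in heart and 35.6% in limb muscle. MiR-133a-5p held 0.677% and 0.708% of miR-133a-3p, and miR-208a-5p held 0.123% of miR-208a-3p in heart. MiR-1a-1-5p was at 0.129% of miR-1a-3p in heart and 0.624% in limb muscle. MiR-133b-5p and miR-206-5p had medians of at most 0.387 rpmm in both tissues.

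Within a tissue of the aging cohort the miR-133 pair rose and fell together. The SD of their log2 ratio over libraries was 0.171 to 0.337 across the 16 tissues, below the SD of either member in all 16. In the parabiosis cohort it was below both in 4 of 5 tissues, and in heart the SD of the ratio (0.268) was above that of miR-133b-3p (0.231), with r = 0.455 between the pair. A read counted for both members would add to each of them. In 1 of the 768 aging libraries, limb muscle of 21 months replicate 28, all miRNA values summed to 1067760 rpmm, above the 1000000 that reads counted once could give, and the part of reads counted more than once in the ratios of the pair was not tested. MiR-1a-3p tracked miR-133a-3p less closely. In limb muscle the ratio of miR-1a-3p to miR-133a-3p had a median of 0.880 and ran from 0.0287 to 1.95. The 6 limb muscle libraries with a ratio under 0.25 had depths of 2.93 to 8.22 M, against a median of 18.7 M in the other 41. Over the 47 libraries the log2 ratio correlated with log2 depth (Pearson's r = 0.616, permutation p = 2e-05, adjusted 8e-05 over 4 relations, and Spearman's rho = 0.363, permutation p = 0.0128, adjusted 0.0510). Without the 2 libraries farthest from the median depth r was 0.764, and with plate means removed it was 0.558 (permutation p = 0.00121). In heart r was 0.292 (adjusted permutation p = 0.0678), and in the parabiosis cohort it was 0.220 in heart and 0.083 in limb muscle. Depth moved with this ratio in the aging limb muscle libraries, and its part in the age differences of that tissue was not tested.

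**Figure D2:**
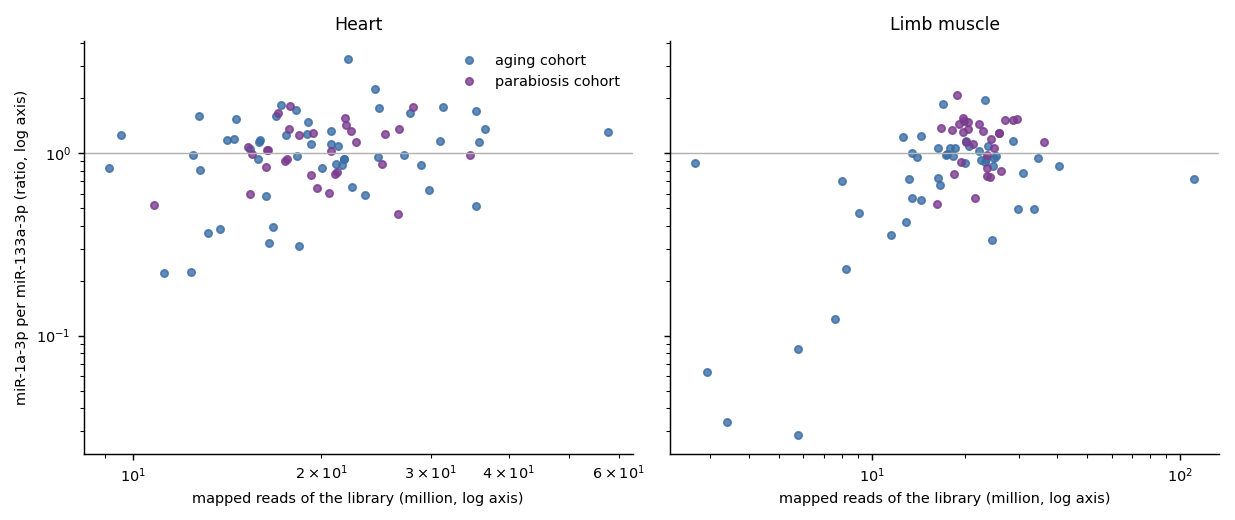
Ratio of miR-1a-3p to miR-133a-3p against the mapped reads of each library, both on log axes, in heart and limb muscle; each point is a library and the grey line marks a ratio of 1. The 6 limb muscle libraries with a ratio under 0.25 are all from the aging cohort and have 2.93 to 8.22 M reads.

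The next question was whether the members change with age, with 3 months as the baseline. Over tissues, limma called 0 members at 1 month, where 1.76% of all miRNA and tissue pairs were called, 2 at 21 months (3.87%) and 11 at the other later ages (2.63%). At each age at most 104 pairs of a member and a tissue entered. Whether members were called more often than other miRNAs was not tested. In heart, miR-208b-3p was higher at the oldest ages. The 5 libraries of 3 months held 21.1, 30.1, 34.4, 48.2 and 61.4 rpmm. The 4 libraries of 24 months held 93.2, 102, 175 and 190 rpmm, and the 3 of 27 months 101, 162 and 224 rpmm, so each of the 7 lay above the highest library of 3 months. The difference from 3 months was 1.84 at 24 months (SE 0.463, limma adjusted p = 0.0291) and 2.05 at 27 months (SE 0.504, adjusted p = 0.0289). No other member was called in heart at these ages, where 0.75% and 0.563% of miRNAs were called.

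MiR-208b-3p was also high in the youngest hearts. At 1 month it ran from 58.6 through a median of 122 to 180 rpmm, and 5 of 6 libraries lay above the highest of 3 months (1.56, limma adjusted p = 0.0518), a difference that was called in 10 of 23 alternatives. The lowest median was 23.5 rpmm at 6 months, and at 21 months the median was 91.9 rpmm (1.22, adjusted p = 0.137). All mice of 24 and 27 months were male, and among males alone the differences were 2.06 and 2.26. With no filter on low values neither call held (limma adjusted p = 0.0623 and 0.0588). Leaving out 1 library of 3, 24 or 27 months also ended calls. The adjusted p rose to 0.126 without replicate 21 or to 0.102 without replicate 6 of 24 months, and to 0.265 without replicate 41 or 0.0592 without replicate 24 of 27 months. Without replicate 2 or 16 of 3 months it was 0.1001 or 0.0767 at 24 months and 0.106 or 0.0865 at 27 months.

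**Figure D3:**
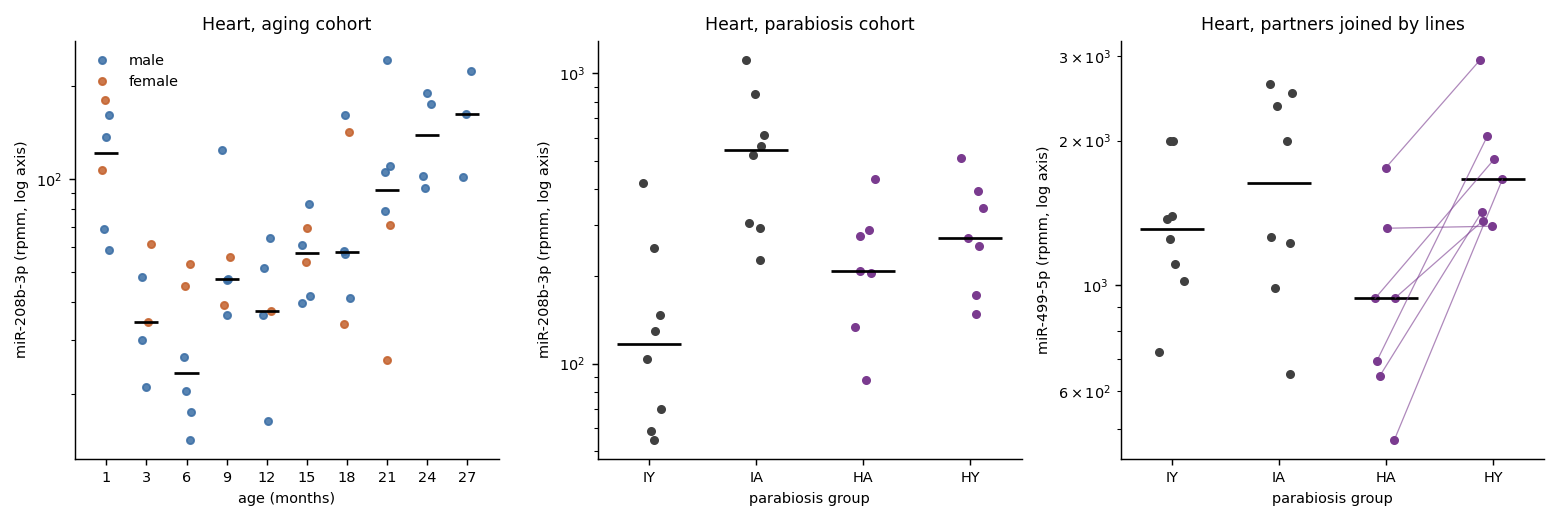
Heart libraries on a log axis of rpmm: miR-208b-3p by age (left) and by parabiosis group (middle), and miR-499-5p by parabiosis group with joined partners linked (right); points are libraries and bars group medians. MiR-208b-3p is lowest at 6 months (median 23.5 rpmm) and highest at 27 months (162 rpmm), and miR-499-5p is lower in the HA partner of all 7 pairs.

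Limb muscle gave lower values of miR-208b-3p at several later ages, at levels near the detection limit. The 3-month libraries ran from 1.43 to 10.4 rpmm with a median of 2.68 rpmm, and those of 9 months from 0 to 1.38 rpmm (-1.68, SE 0.432, limma adjusted p = 0.00403, where 14.5% of miRNAs were called). It was also called at 12, 15 and 21 months (-1.46, -1.56 and -1.47), against 11.4%, 22.5% and 17.9% of all miRNAs called. With the sequencing plate as a covariate none of these 4 calls held (adjusted p = 0.0719 to 0.133). Leaving out replicate 40 of 3 months ended those at 12 and 21 months, as did replicate 15 of 3 months at 12 months and replicate 28 of 21 months at 21 months. The median of all miRNAs in limb muscle was itself shifted, by -0.42 at 21 months and -0.45 at 15 months.

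MiR-206-3p varied over a 68.3-fold range among limb muscle libraries. At 3 months it ran from 2147 through a median of 2700.00 to 6544 rpmm. The 21-month libraries held 244, 455, 642, 904 and 4392 rpmm, of which 4 lay below the lowest of 3 months (-2.003, SE 0.732, limma adjusted p = 0.0493). The call was lost in 20 of 23 alternatives, among them leaving out replicate 28, the library of 244 rpmm (-1.59, limma adjusted p = 0.218). The same library held 604408 rpmm of miR-133a-3p and 17326 rpmm of miR-1a-3p at a depth of 5.77 M, and without it, or without replicate 40 of 3 months, no member was called in limb muscle at 21 months. At 1 month the median was 7150.31 rpmm and at 27 months 4473.54 rpmm, so the level had no single direction over age.

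The difference between the changes in heart and limb muscle was tested by an interaction at 21 months. MiR-208b-3p was called (2.69, SE 0.639, limma adjusted p = 0.00152), where 8.4% of miRNAs were, and it held in all 12 alternatives, from 1.76 to 3.94. Leaving out single libraries was not among these alternatives. Without replicate 40 of 3 months or 28 of 21 months the limb muscle call itself was lost. For miR-206-3p the difference was 2.37 (SE 0.830, limma adjusted p = 0.0573), called when values were scaled by miRNA reads (2.75, adjusted p = 0.0214), and at 1 month no member was called (0.84% of miRNAs).

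**Figure D4:**
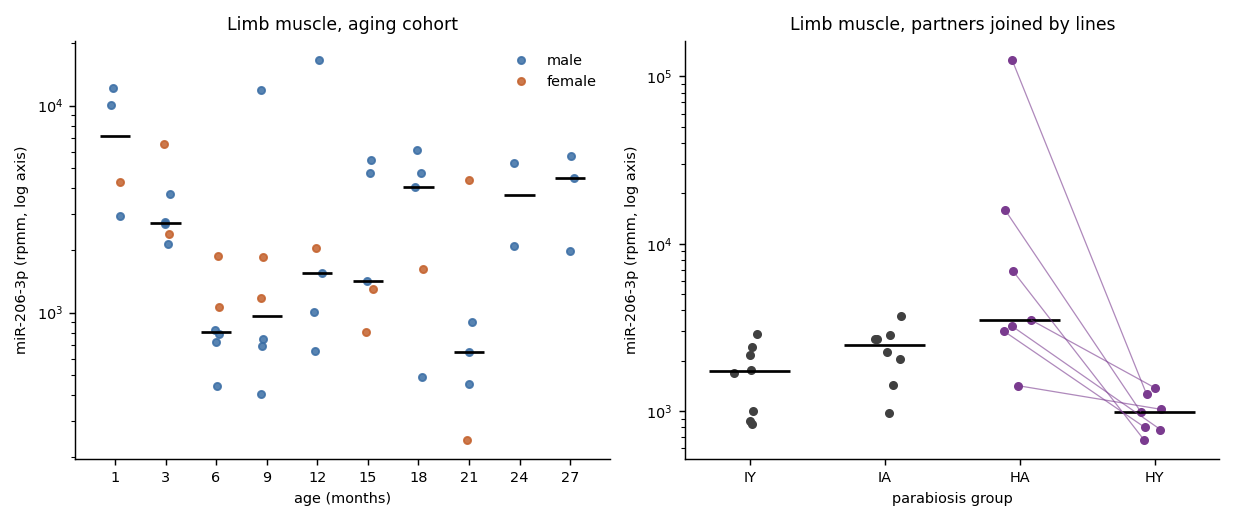
MiR-206-3p in limb muscle on a log axis of rpmm, by age (left) and by parabiosis group with joined partners linked (right); points are libraries and bars medians. All 7 HA libraries lie above the highest HY library of 1377 rpmm, and the HA mouse of pair 14 reaches 125848 rpmm.

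Correlation with age over all libraries of a tissue called 4 of the 104 member and tissue pairs and 8.07% of all miRNA and tissue pairs. In bone (femurs and tibiae) 3 members rose, as did 6.38% of miRNAs. MiR-133a-3p rose from a median of 2465.32 rpmm at 1 month and 5691 rpmm at 3 months to 18232 rpmm at 24 months and 11788 rpmm at 27 months. All 7 libraries of 24 and 27 months lay above the highest of 3 months, 8337 rpmm. Its rho was 0.618 (permutation p = 2e-05, adjusted p = 0.000761) and its Pearson's r 0.599. MiR-133b-3p gave rho = 0.593 (adjusted permutation p = 0.000592) and r = 0.574, and miR-1a-3p rho = 0.518 (adjusted permutation p = 0.00291) and r = 0.506. With plate means removed the 3 values were 0.597, 0.586 and 0.559. Without the 1-month libraries only miR-133a-3p stayed called (0.502), with 0.440 for miR-133b-3p and 0.353 for miR-1a-3p, and without the 24- and 27-month libraries miR-1a-3p was not called (0.42). Without the 2 bone libraries closest to another tissue, the one of 27 months closest to heart and one of 21 months closest to SCAT, rho was 0.636, 0.615 and 0.543, and all 3 members were called. The 4 bone libraries of 27 months lay farthest from the median age. With 2 of them dropped, rho of miR-1a-3p was 0.471, under the limit of 0.5. Scaling by miRNA reads also ended its call (rho = 0.492). Of the markers of other cell types, 1 of 3 of white blood cells (miR-150-5p, rho = 0.535) and 1 of 2 of keratinocytes (miR-203-3p, rho = 0.590) also rose in bone. The others of these lists were not called (miR-142a-3p 0.257, miR-223-3p 0.038 and miR-205-5p -0.046). Their part in the result was not tested.

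The remaining call was miR-208b-3p in BAT, where 15.2% of miRNAs rose (rho = 0.502, adjusted permutation p = 0.0290, r = 0.424), which held in 4 of 10 alternatives. Its median there was 0.184 rpmm, and 5 of 31 libraries reached 1 rpmm. Markers of endothelium (miR-126a-3p, rho = 0.503, 1 of 2) and adipocytes (miR-365-3p, rho = 0.506, 1 of 2) also rose in BAT, and their part was not tested. In heart miR-208b-3p had rho = 0.366 (adjusted permutation p = 0.0507), and no member was called in limb muscle. Other values had an adjusted permutation p under 0.05 but a rho short of the limit of 0.5. They were miR-208b-3p in MAT (-0.484), limb muscle (-0.368) and bone (0.392), and miR-499-5p in bone (0.456). The rest were in BAT, for miR-133a-3p (0.459), miR-1a-3p (0.454), miR-133b-3p (0.427) and miR-206-3p (0.423).

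Further age calls were made in MAT, skin and liver. In MAT at 27 months miR-133a-3p, miR-133b-3p, miR-1a-3p and miR-208b-3p were lower than at 3 months (-2.30, -1.91, -2.05 and -3.04). The call of miR-1a-3p was lost in 4 of 11 alternatives, among them males only and plate as a covariate. All 3 MAT libraries of that age had a profile closest to another tissue, with both smooth muscle markers lower (34007 to 49578 against 181455 to 383994 rpmm in sum) and all 3 white blood cell markers higher, and 35.9% of miRNAs were called. Without those libraries no value could be estimated. In skin at 18 months miR-1a-3p was lower (-2.32, SE 0.757, limma adjusted p = 0.0274), where 15.6% of miRNAs were called. In liver at 27 months miR-499-5p was higher (0.86), where 28.9% were. Neither call held under any of the 3 other scalings or with plate as a covariate.

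Females and males were compared at 1 to 21 months, and 5 calls over tissues fell on members (4.42% of all pairs were called). An excess of members over that share was not tested. In GAT, 4 members were higher in females, where 9.83% of miRNAs were called. MiR-206-3p ran from 16.9 through a median of 85.4 to 356 rpmm in 13 females and from 0.105 through 11.7 to 45.6 rpmm in 20 males. All 13 females lay above the male median and 7 above the highest male (2.96, SE 0.404, limma adjusted p = 1.19e-06). MiR-133a-3p had medians of 1318 and 548 rpmm (1.42, SE 0.241), miR-133b-3p of 367 and 180 rpmm (1.26, SE 0.240) and miR-1a-3p of 521 and 257 rpmm (1.28, SE 0.272). Each held in 10 of 10 alternatives. The cardiac miR-208a-3p and miR-499-5p were not called. Of the cell type markers tested in GAT, only miR-126a-3p of endothelium was called, lower in females (-0.58). In lung miR-133a-3p was lower in females (-0.75, SE 0.192, adjusted p = 0.0474), a call lost in 7 of 10 alternatives, where 1.18% of miRNAs were called.

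**Figure D5:**
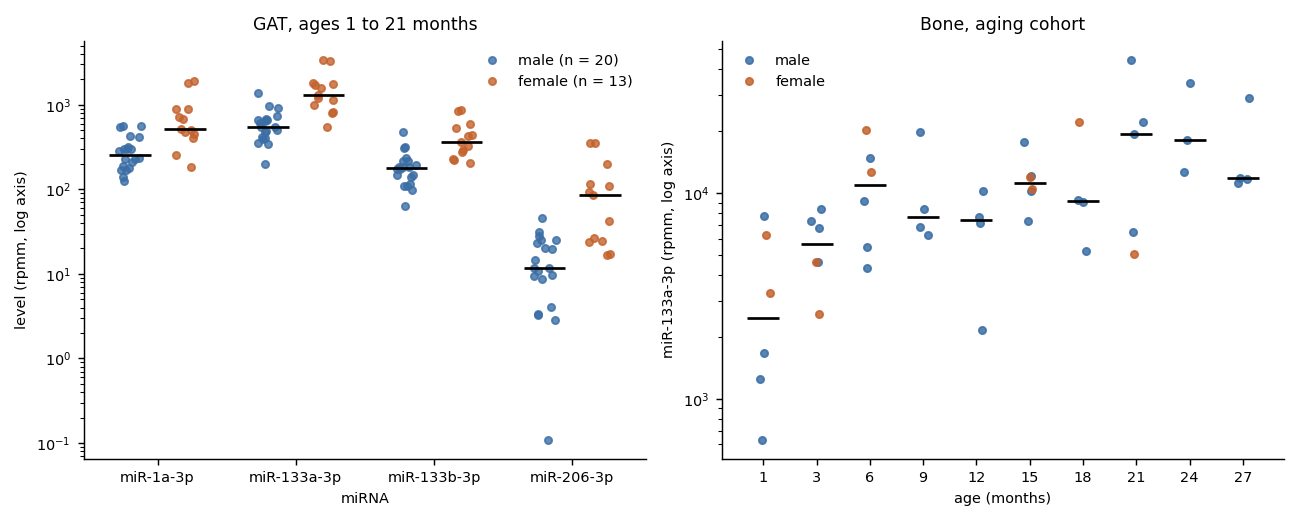
Left, the 4 members called between the sexes in GAT at 1 to 21 months, in rpmm on a log axis for each library, with bars at medians; right, miR-133a-3p in bone by age. In GAT the female median of miR-206-3p is 85.4 rpmm against 11.7 rpmm in males, and in bone the median of miR-133a-3p is 2465.32 rpmm at 1 month and 18232 rpmm at 24 months.

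In the parabiosis cohort the aged and young isochronic groups were compared first, with 2 of 39 member and tissue pairs and 8.13% of all pairs called. In heart, miR-208b-3p ran from 54.7 through 117 to 418 rpmm in IY and from 228 through 543 to 1115 rpmm in IA. Of 8 IA libraries, 5 lay above the highest IY library (2.01, SE 0.371, limma adjusted p = 0.00130), where 18.6% of miRNAs were called. Isochronic partners are joined and so not independent mice, and with the pair as a random block the adjusted p was 0.00230. The IY mice of 3 months had a median of 86.6 rpmm and those of 4.5 months 190 rpmm, and against the latter alone the difference was 1.57 (adjusted p = 0.0885). MiR-1a-3p was lower in IA (-0.49, SE 0.164, adjusted p = 0.0385), a call lost in 14 of 28 alternatives and kept with the pair as a random block (adjusted p = 0.0477). MiR-208a-3p hardly moved (-0.02, SE 0.152). Markers of smooth muscle (1 of 2 lower) and of white blood cells (1 of 3), fibroblasts, keratinocytes and adipocytes (1 of 2 each) higher were also called, and their part was not tested. No member was called in limb muscle, where 14.5% of miRNAs were.

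HA minus IA compares aged mice with a young partner to aged mice with an aged partner. The young partners were all of the HY strain, so age and strain of the partner cannot be told apart. It called 2 of 39 member and tissue pairs and 0.965% of all pairs. In heart miR-208b-3p had a median of 209 rpmm in HA, and 4 of 7 HA libraries lay below the lowest IA library (-1.23, SE 0.384, limma adjusted p = 0.0630). MiR-499-5p gave -0.79 (SE 0.276, adjusted p = 0.0855). With all mice 0.388% of heart miRNAs were called. Without mice 19A, 19B and 20A both members were called, at -1.30 (adjusted p = 0.0388) and -1.14 (adjusted p = 0.0130). The share of heart miRNAs called without these mice is not given here. Leaving out HA mouse 20A or 5A also gave a call for both (adjusted p = 0.0419 and 0.0428 for miR-208b-3p, 0.0492 and 0.0428 for miR-499-5p), as did leaving out IA mouse 6A for the former (0.0396) and 19B for the latter (0.0413). For each of these members, 22 of 26 alternatives gave no call. In GAT miR-133a-3p fell from a median of 495 rpmm in IA to 165 rpmm in HA (-1.75, SE 0.450, adjusted p = 0.0363), with 5 of 7 HA libraries below the lowest IA. MiR-133b-3p moved by -1.48 (adjusted p = 0.0476), where 3.86% of miRNAs were called. With the sequencing pool as a covariate the differences were -1.72 and -1.45 and neither call held (adjusted p = 0.0510 and 0.0710).

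HY minus IY called no member, and limma called none of 3211 pairs of a miRNA and a tissue. The largest heart difference among members was that of miR-208b-3p (1.18, SE 0.384, adjusted p = 0.433), with an HY median of 271 rpmm.

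HA minus HY compares joined partners, which share blood but differ in age and strain. It called 3 of 39 member and tissue pairs and 9.81% of all pairs. In limb muscle miR-206-3p was higher in the HA partner of all 7 pairs, at ratios from 1.38 to 99.7. HA mice held 1417, 2995, 3229, 3488, 6852, 15901 and 125848 rpmm, and their partners 1024, 798, 774, 1377, 675, 992 and 1262 rpmm. The groups did not overlap (2.82, SE 0.561, limma adjusted p = 0.000377), where 11.9% of miRNAs were called. Without the HA mouse of pair 14 the difference was 2.12 (adjusted p = 6.22e-05), and the call held in all 25 alternatives. The IA and IY libraries ran from 974 to 3680 and from 832 to 2884 rpmm. Only 3 HA libraries lay above the highest IA, 3 HY libraries lay below the lowest IY, and HA minus IA was not called (1.64, SE 0.543, adjusted p = 0.384, with 0.202% of miRNAs called).

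The HA mouse of pair 14 stood apart in other members too, with the highest miR-208b-3p (40.8 rpmm) and miR-499-5p (32.3 rpmm) and the lowest miR-1a-3p (90456.6 rpmm) of the limb muscle libraries of the cohort. MiR-208b-3p was higher in HA in 5 of 7 pairs (1.12, SE 0.438, adjusted p = 0.0976), and with the pair number as a replicate block it was called (adjusted p = 0.0392), as it was without HA mouse 2A (0.0442) or 5A (0.0394) and with edgeR (0.00674). In 20 of 24 alternatives it was not called, and the differences ran from 0.55 to 2.99 over all alternatives. The HA libraries outside pair 14 held only 0.552 to 4.91 rpmm.

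In heart miR-499-5p was lower in the HA partner of all 7 pairs. HA mice ran from 476 through 938 to 1755 rpmm and HY mice from 1326 through 1660 to 2949 rpmm, and 6 of 7 HA libraries lay below the lowest HY (-0.96, SE 0.285, limma adjusted p = 0.0170), where 19.6% of miRNAs were called. The pair ratios ran from 0.287 to 0.990, and without the HA mouse of pair 14 the difference was -0.81 (adjusted p = 0.0589). MiR-208b-3p had no direction over the pairs, higher in HA in 3 and lower in 4. In kidney miR-206-3p was higher in HA in 6 of 6 pairs at 0.479 to 5.32 rpmm (1.02, SE 0.345, adjusted p = 0.0309), where 22.7% of miRNAs were called, and 3 of 10 alternatives ended the call. There all 3 white blood cell markers and both fibroblast markers were higher in HA as well, and their part was not tested.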

How the data were processed

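Small RNA libraries were sequenced single-end. Per the study's methods, reads were mapped with Bowtie and counted with miRMaster against miRBase, and libraries with few aligned reads were left out. The deposited values are a signal per miRNA and library, made by the authors, in reads per 1000000 mapped reads (rpmm, build mm10 in the submitters' processing notes). Of 771 aging columns, 3 were not used because names and labels disagree. Whole reads were recovered for 99.0% and 98.8% of miRNA values in the 2 cohorts (tolerance 0.05 reads), which gave depth and an edgeR test as an alternative. Members, relatives, marker lists and tests were chosen with earlier results of these data known.

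Log2(rpmm + 1) was tested with limma 3.58.1 (eBayes with trend, R 4.3.3, edgeR 4.0.16), with Benjamini-Hochberg adjustment over all miRNAs within tissue and contrast. The pseudocount understates changes of low miRNAs. Correlations with age were Spearman's rho with 100000 two-sided shuffles, called beyond 0.5 with an adjusted p under 0.05. All members are named in every comparison. Title numbers of the aging cohort identify no mice, and where nothing names separate animals, p-values measure the spread between libraries. The strain name of the HY mice is not reported here. In the parabiosis cohort the pair number marks joined partners. Deviations of partners correlated above 0.1 in 6 of 7 pairs in heart, 5 of 7 in limb muscle and 7 of 7 in liver. In kidney 3 of 6 pairs did, in GAT 2 of 7 and in MAT 2 of 5. The median correlation was 0.260 in heart, 0.358 in limb muscle, 0.372 in liver and 0.179 in kidney, but -0.325 in GAT and -0.362 in MAT. Alternatives covered scaling, filter, pseudocount, batch, sex, strain and single libraries. The tests were also run on counts simulated independently for each miRNA and library, with the same dispersion for every miRNA. That simulation held no batches, joined pairs or outlying libraries, so it does not show how the tests behave with them.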

Additional observations from a re-analysis of the deposited data

Results flagged for a closer look

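Of 175 groups of heart or limb muscle libraries tested member by member, 24 held a library far from the rest by Dixon's criterion, and chance gives about 1 in 20. The limb muscle library of 21 months, replicate 28, was flagged 3 times, with 17326 rpmm of miR-1a-3p, 604408 rpmm of miR-133a-3p and 2.08 rpmm of miR-499-5p. MiR-1a-3p was also low in limb muscle at 9 months (8152.94 rpmm, replicate 38), at 6 months (103116 rpmm, replicate 42) and in an IA mouse (143786 rpmm, 7A). In heart it was low at 18 months (42239.5 rpmm) and 6 months (46314.5 rpmm) and high at 21 months (156034 rpmm). MiR-133a-3p was low in heart at 12 months (44516 rpmm) and in the IA mouse 19B (58561 rpmm).

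The limb muscle library of the IY mouse 10B was low in miR-133a-3p (113687 rpmm) and miR-133b-3p (33867 rpmm). MiR-208a-3p was low in heart at 1 month (2104 rpmm) and 24 months (2879 rpmm), and miR-206-3p was high in a heart library of 15 months (8.93 rpmm). In limb muscle miR-208a-3p was low at 15 months (1.37 rpmm) and in the HA mouse 5A (0.307 rpmm) and high at 6 months (48.4 rpmm) and 18 months (15.8 rpmm). MiR-208b-3p was high in heart at 9 months (124 rpmm), in limb muscle at 6 months (17.4 rpmm), in the HA mouse 14A (40.8 rpmm) and in the HY mouse 12B (2.91 rpmm). The change of miR-208b-3p from 3 to 21 months differed between heart and limb muscle by 2.69 on the log2 scale.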

How the results depend on the processing

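Counts are of members called, over tissues. The share of all miRNAs called under each alternative is not given beside them. A change in a count therefore cannot be read as particular to the members. With edgeR on recovered reads they were 1 at 1 month (0 with limma), 6 at 21 months (2), 18 at the later ages (11) and 5 for HA minus IA (2). A mean of at least 10 rpmm gave 2 at 1 month, 0 at 21 months and 7 at later ages, and no filter gave 1 at 21 months, 6 at later ages and 1 each for IA minus IY (2) and HA minus IA. Median-ratio scaling gave 1 at 1 month and 5 at 21 months. Scaling by miRNA reads, with or without the members, gave 1 at 1 month, 1 for IA minus IY and 2 for the interaction (1). Plate as a covariate gave 1 at 1 month, and a pseudocount of 5 rpmm gave 1 at 21 months and 1 for HA minus IA. Males only gave 1 at 21 months and 21 at later ages, and title sets or sex as a covariate gave 1 at 21 months. The pool as a covariate gave 1 for IA minus IY, 0 for HA minus IA and 6 for HA minus HY (3). IY mice of 4.5 months alone gave 0 for IA minus IY, and without mice 19A, 19B and 20A there were 4 for IA minus IY and 4 for HA minus IA. An adjusted p alone gave 12 correlations with age (4). Leaving out single libraries gave 0 to 1 at 1 month, 0 to 3 at 21 months, 9 to 11 at later ages, 1 to 2 for IA minus IY, 2 to 4 for HA minus IA, 0 for HY minus IY and 2 to 5 for HA minus HY. With the pair number as a replicate block HA minus HY called 4, and with the mouse as a block heart minus limb muscle called 7. Alternatives for the later ages and the interaction were chosen after seeing the data. A selected set of results of single members was followed by name over the alternatives. Of those values, 734 kept direction and side of the threshold, 98 lost the call, 52 gained it and 0 reversed, and the cause was not tested. The other pairs of a member and a tissue are not in this tally, so calls gained or reversed among them are not counted. Outside heart and lung miR-208b-3p was low in the aging cohort, with medians of 3.29 rpmm in MAT and 0.789 rpmm in limb muscle. The part of depth in its calls there was not tested.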

Other observations

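Across tissue means, the miRNAs most like miR-1a-3p other than the members and their relatives (other arms and near copies) were miR-149-5p (Pearson's r = 0.767), miR-486b-3p (0.755) and miR-486a-3p (0.755), of 604 candidates over 16 tissues. For miR-206-3p they were miR-299a-5p (0.683), miR-483-5p (0.660) and miR-6238 (0.615), and for miR-208a-3p miR-30b-3p (0.787), miR-201-5p (0.758) and miR-547-3p (0.747). MiR-30b-3p was highest in heart and then lung, the order of miR-208a-3p itself. These values describe means over tissues that share libraries and carry no test.

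In kidney of the parabiosis cohort, the IY libraries had a median of 576 rpmm of miR-133a-3p, against 54.6 rpmm in IA, 75.3 rpmm in HA and 55.96 rpmm in HY, with overlapping ranges and no call. In limb muscle of the aging cohort, 4 of 47 libraries held at least 10000 rpmm of miR-206-3p.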
